A study of Homo sapiens with 32 samples.

Results

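Osteoprotegerin (OPG) was set against vehicle in NTera2, a human cell line derived from embryonal carcinoma. The comparison used the 4 libraries labelled OPG and the 4 labelled vehicle, 8 of the 32 libraries of the series, and all genes of the count table. OPG cells had 1 µg/ml OPG for 48 h in medium with serum, and vehicle cells had D-PBS in the same medium. Replicates 1 to 4 came from 4 independent experiments with cells of passages 27, 29, 30 and 31, and each number marked the same passage in both groups. NTera2 cells given denosumab or RANKL, and the seminoma-derived line TCam-2 given OPG or its vehicle, served as points of reference. The protocol names RANKL a second time and denosumab not at all, so what the denosumab libraries received rests on their labels.

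OPG is a secreted member of the tumour necrosis factor receptor family. It binds RANKL (TNFSF11) and keeps it from its receptor RANK (TNFRSF11A), which in bone signals through TRAF adaptors to NF-kB and NFATc1 and drives osteoclast formation. OPG also binds TRAIL (TNFSF10), the ligand of the death receptors. Embryonal carcinoma cells are pluripotent germ cell tumour cells that depend on POU5F1 and SOX2.

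Total counts lay between 12467237 and 18975760 in the OPG libraries and between 11847394 and 17110838 in the vehicle libraries. RNA integrity numbers ran from 8.6 to 9.4 in OPG cells and from 9.1 to 9.2 in vehicle cells, where replicate 1 had none. Values are CPM (read counts scaled to library size) with TMM factors over the 16 NTera2 libraries. Markers of embryonal carcinoma were abundant, with POU5F1 at 1164 to 1425 CPM in OPG cells and 1337 to 1591 CPM in vehicle cells. LIN28A stood at 2084 to 2179 CPM in OPG cells and 2065 to 2225 CPM in vehicle cells. The 5 seminoma markers summed to 20.2 to 25.5 CPM in OPG cells and 21.9 to 24.4 CPM in vehicle cells. TFAP2C made up most of this, at 18.3 to 23.6 CPM in OPG cells and 20.1 to 23.6 CPM in vehicle cells, while SOX17 had 3 counts in all OPG libraries and 2 in all vehicle libraries and TCL1A had 0 in both. The 13 immune cell markers summed to 19.1 to 20.9 CPM in OPG cells and 19.2 to 24.9 CPM in vehicle cells. CD4 made up most of this sum, at 14.8 to 17.2 CPM in OPG cells and 14.6 to 20.9 CPM in vehicle cells. PTPRC, MS4A1, CD68 and NKG7 had 0 counts. The 12 fibroblast markers summed to 634 to 731 CPM in OPG cells and 684 to 729 CPM in vehicle cells, most of it from THY1 and FBLN1. PDGFRB stood at 34.0 to 45.9 CPM in OPG cells and 37.7 to 42.3 CPM in vehicle cells, COL1A1 at 29.9 to 32.6 CPM and 26.1 to 35.2 CPM, and DCN had 0 counts in OPG cells and 1 in vehicle cells. The 15 Sertoli, Leydig and endothelial markers summed to 186 to 209 CPM in OPG cells and 190 to 212 CPM in vehicle cells. TEK was the largest of them, at 73.6 to 87.2 CPM in OPG cells and 76.5 to 88.6 CPM in vehicle cells. AMH stood at 44.2 to 54.1 CPM and 38.4 to 67.5 CPM, and STAR at 24.1 to 27.5 CPM and 25.4 to 30.1 CPM. CYP17A1 and HSD3B2 had 0 counts. In bulk RNA, fewer cells of a type and less RNA per cell cannot be told apart.

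No gene differed between OPG and vehicle at an adjusted p under 0.05. Of 17351 genes tested with edgeR's quasi-likelihood test, 0 were called (0%), and the smallest adjusted p was 0.9998. At an unadjusted p under 0.05, edgeR gave 291 genes (1.68%), of which 151 were higher in OPG cells and 140 lower, while DESeq2 called 0 and gave 301 at that level. With the replicate number as a block, edgeR again called 0, with 757 genes at an unadjusted p under 0.05 (4.36%) and a smallest adjusted p of 0.430. Of the 757, 417 were higher (2.4%) and 340 lower (1.96%). Groups without overlap, in either direction, were found for 333 genes (1.92%).

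The unadjusted count moved down or up with single libraries left out. It was 156 without OPG replicate 1, 147 without OPG replicate 4, 117 without vehicle replicate 2 and 177 without vehicle replicate 4. It was 459 without OPG replicate 2, 566 without OPG replicate 3, 698 without vehicle replicate 1 and 426 without vehicle replicate 3.

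The estimated differences were small among the more abundant genes. Among the 9945 genes with a mean of at least 10 CPM, the log2 fold change lay between -0.42 and 0.45. The median standard error (SE) of these genes was 0.0926 on the log2 scale. For 9665 of them (97.2%), the 95% interval of the log2 fold change lay within -0.5 to 0.5. These intervals hold for each gene alone and come from the fit without the replicate block.

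**Figure D1:**
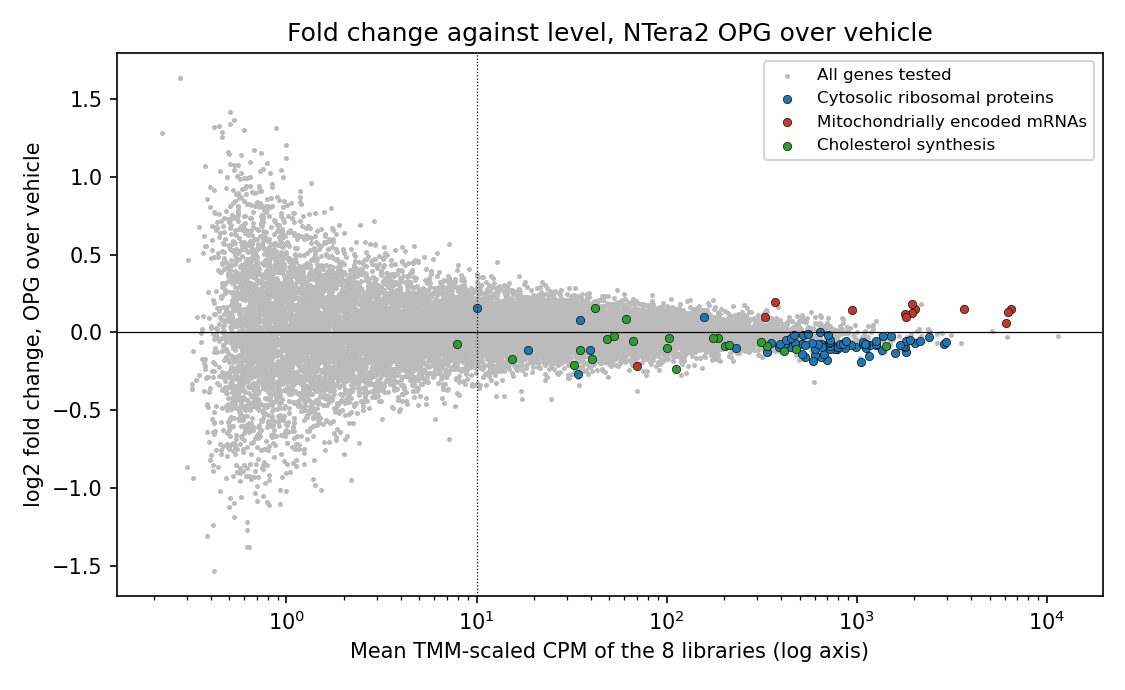
Each point is 1 of 17351 tested genes, with its mean CPM over the 8 libraries on a log x axis and its log2 fold change, OPG over vehicle, on the y axis. Right of the dotted line at 10 CPM no gene lies beyond -0.42 or 0.45, and the ribosomal protein genes lie mostly below 0 and the mitochondrially encoded mRNAs mostly above it.

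Of the RANKL and TRAIL ligand and receptor genes, 8 were tested, and for each of these the groups overlapped. TNFSF11, which encodes RANKL (chromosome 13, 42562736 to 42607174, GRCh38), had 1.62, 2.00, 1.37 and 1.23 CPM in OPG cells and 2.45, 1.53, 1.95 and 1.36 CPM in vehicle cells. These levels came from 17 to 38 counts per OPG library and 22 to 42 per vehicle library, and the groups overlapped. Its log2 fold change was -0.22 (95% interval -0.81 to 0.37), so changes within that interval were not excluded.

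TNFRSF11A, the gene of RANK (chromosome 18, 62325287 to 62387659, GRCh38), had 6.36, 7.26, 8.04 and 7.75 CPM in OPG cells and 8.64, 7.94, 8.06 and 6.49 CPM in vehicle cells. The ranges overlapped, and the log2 fold change was -0.08 ± 0.147 (SE). TNFRSF11B, the cell's own OPG gene (chromosome 8, 118923557 to 118951885, GRCh38), averaged 1.78 ± 0.392 CPM in OPG cells and 1.78 ± 0.157 CPM in vehicle cells (SD, n = 4 each). Added OPG protein is not measured by this transcript.

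LGR4, a second receptor for RANKL, had 103, 75.9, 82.8 and 96.7 CPM in OPG cells and 87.1, 67.4, 80.2 and 80.6 CPM in vehicle cells. It was higher in OPG cells in 4 of 4 pairs, as were 7.22% of all genes tested, and the groups overlapped. Its log2 fold change of 0.19 ± 0.091 (SE) had an unadjusted edgeR p of 0.0523, and of 0.0052 with the replicate block, with an adjusted p above 0.99 in both fits.

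The TRAIL receptors were expressed and their groups overlapped. TNFRSF10B (DR5), a death receptor, averaged 173 ± 3.62 CPM in OPG cells and 175 ± 8.75 CPM in vehicle cells, with a 95% interval of the log2 fold change of -0.14 to 0.11. TNFRSF10A (DR4), the other death receptor, averaged 27.0 ± 2.73 CPM in OPG cells and 27.5 ± 1.45 CPM in vehicle cells. The decoy receptors TNFRSF10C and TNFRSF10D averaged 6.14 ± 1.25 and 29.6 ± 2.25 CPM in OPG cells, against 6.27 ± 0.885 and 28.6 ± 2.21 CPM in vehicle cells. TNFSF10, the gene of TRAIL, had 2 counts in all OPG libraries and 2 in all vehicle libraries and was not tested.

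**Figure D2:**
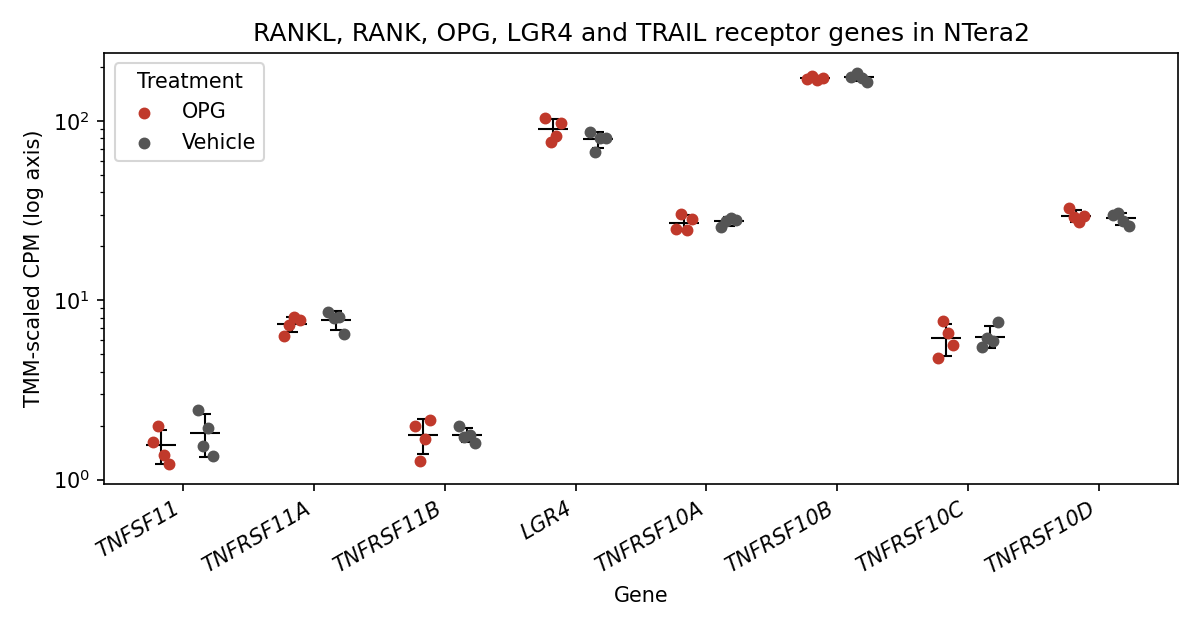
Points are single libraries and bars the mean and SD of 4, on a log axis of TMM-scaled CPM, with OPG left of vehicle for each gene. The groups overlap for all 8 genes, from TNFSF11 near 1.55 CPM in OPG cells to TNFRSF10B near 173 CPM.

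Genes that act below RANK showed no called difference. Of 25 tested RANK adaptors and kinases, 12 had a positive and 13 a negative log2 fold change, with a median of -0.01 beside 0.00 for all genes tested. SQSTM1, the scaffold protein p62, had 157, 176, 162 and 156 CPM in OPG cells and 167, 202, 170 and 181 CPM in vehicle cells, lower in 4 of 4 pairs with overlapping groups. TAB2, an adaptor of the kinase TAK1, averaged 69.4 ± 7.03 CPM in OPG cells and 60.8 ± 9.31 CPM in vehicle cells, higher in 4 of 4 pairs.

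Of 12 NF-kB subunits and inhibitors, 8 had a negative log2 fold change, beside 48.7% of all genes tested, with a median of -0.04. By pair the median was 0.03, 0.03, -0.04 and -0.16. With GC and length correction 6 were positive and 6 negative. NFKBIB, an inhibitor of NF-kB, averaged 30.7 ± 5.05 CPM in OPG cells and 37.1 ± 4.10 CPM in vehicle cells, and NFKB2, the p100 subunit, 50.7 ± 4.73 CPM and 54.6 ± 5.64 CPM. Of 13 tested NF-kB target genes, 9 were negative with a median of -0.03, and none had an unadjusted edgeR p under 0.05. Their median by pair was 0.02, -0.06, 0.06 and -0.06, and with GC and length correction 6 were positive and 7 negative. CCND1, the cyclin D1 gene, averaged 281 ± 12.3 CPM in OPG cells and 282 ± 20.1 CPM in vehicle cells.

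The 7 tested osteoclast genes all had a negative log2 fold change, with a median of -0.11, and none had an unadjusted edgeR p under 0.05. By pair the median was -0.16, -0.11, 0.03 and -0.22. It was -0.03 without OPG replicate 4, over 4 positive and 5 negative genes, -0.06 without vehicle replicate 1 and -0.07 without vehicle replicate 4, where 9 genes were tested each. Without a low-count filter it was -0.01, over 7 positive and 8 negative genes, and with GC and length correction 2 of the 7 were positive. NFATC1, the osteoclast master regulator, had 10.4, 9.26, 12.1 and 8.80 CPM in OPG cells and 12.1, 11.5, 11.9 and 11.1 CPM in vehicle cells. CLCN7, a lysosomal chloride transporter, averaged 148 ± 11.9 CPM in OPG cells and 159 ± 16.8 CPM in vehicle cells. The medians of these 7 genes against the same vehicle libraries were -0.28 in denosumab cells and -0.24 in RANKL cells.

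Genes of cell death and the p53 pathway were split between both directions. Of 20 tested genes of the death receptor machinery, 9 were positive and 11 negative, and of 21 p53 pathway genes 10 were positive and 11 negative. FADD, the adaptor of the death receptors, averaged 68.7 ± 2.09 CPM in OPG cells and 75.9 ± 5.64 CPM in vehicle cells, lower in 4 of 4 pairs. MCL1, an inhibitor of apoptosis, averaged 381 ± 23.1 CPM in OPG cells and 383 ± 19.2 CPM in vehicle cells.

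Pluripotency and cell cycle genes had small log2 fold changes, and none was called. SOX2 had 274, 295, 307 and 281 CPM in OPG cells and 298, 353, 284 and 345 CPM in vehicle cells, with overlapping groups and a log2 fold change of -0.15 ± 0.071 (SE). POU5F1, which has near-identical pseudogenes, was lower in OPG cells in 4 of 4 pairs, with a log2 fold change of -0.13 ± 0.066 (SE). LIN28A, an RNA-binding pluripotency factor, had a 95% interval of -0.06 to 0.10. Of 19 core pluripotency factors, 12 were negative with a median of -0.01.

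Of 29 S phase and mitosis genes, 14 were positive and 15 negative, with a median of 0.00. MKI67, the proliferation marker, averaged 296 ± 12.7 CPM in OPG cells and 277 ± 11.7 CPM in vehicle cells, higher in 4 of 4 pairs. AURKB, a mitotic kinase, averaged 130 ± 9.07 CPM in OPG cells and 141 ± 5.93 CPM in vehicle cells, lower in 4 of 4 pairs.

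The 12 genes with the smallest p-values among those lower in OPG cells, at a mean of 10 CPM or more, were of mixed kinds, and none was called. COX5B, a nuclear subunit of respiratory complex IV, had 102, 120, 105 and 104 CPM in OPG cells and 120, 138, 119 and 144 CPM in vehicle cells. It was lower in 4 of 4 pairs, and the groups overlapped by 1 OPG library. Its log2 fold change was -0.27 ± 0.072 (SE), with an unadjusted edgeR p of 0.000903 and an adjusted p of 0.9998, or 0.430 with the replicate block.

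TMA7, a translation machinery protein, had 113, 121, 114 and 115 CPM in OPG cells and 120, 156, 144 and 135 CPM in vehicle cells. TMSB10, which binds actin monomers, averaged 464 ± 20.2 CPM in OPG cells and 524 ± 35.9 CPM in vehicle cells, and TOMM7, of the mitochondrial import pore, 208 ± 8.11 CPM and 237 ± 13.1 CPM. For TOMM7 every OPG library lay below every vehicle library. PIN4, a peptidyl-prolyl isomerase, had 38.6 to 39.6 CPM in OPG cells and 44.3 to 47.5 CPM in vehicle cells, also without overlap. The other genes that the naming rule took on this side were RPL13, TRIR, STK32C, BANF1, ANKRD9 and SH3BP5L, with log2 fold changes between -0.41 for STK32C and -0.17 for BANF1, and RPL41, described with the ribosomal proteins. Groups that did not overlap, lower in OPG cells, made up 0.991% of all genes tested.

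The 12 genes taken by the same rule on the higher side were also of mixed kinds, and none was called. LIX1L had 14.2, 14.8, 13.5 and 16.4 CPM in OPG cells and 11.3, 11.3, 10.9 and 9.64 CPM in vehicle cells, without overlap. Its log2 fold change was 0.45 ± 0.122 (SE), with an unadjusted edgeR p of 0.00102 and an adjusted p of 0.9998. SFT2D2 averaged 33.8 ± 2.48 CPM in OPG cells and 27.7 ± 3.36 CPM in vehicle cells, and KLF8, a zinc finger transcription factor, 11.4 ± 1.15 CPM and 8.91 ± 1.03 CPM. CEP350, a centrosomal protein, was higher in 3 of 4 pairs. The others taken by the rule were UGGT2, LSM12, BBX, LOC100379224, ZNF765 and PLEKHA8, with log2 fold changes between 0.21 for PLEKHA8 and 0.37 for ZNF765, and MT-CYB and MT-CO3, described with the mitochondrial mRNAs. Groups that did not overlap, higher in OPG cells, made up 0.928% of all genes tested.

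The guidance ligand gene SLIT3, below the 10 CPM limit, had 3.55, 3.95, 3.30 and 3.57 CPM in OPG cells and 2.98, 1.87, 2.04 and 1.85 CPM in vehicle cells. The groups did not overlap, and the log2 fold change was 0.71 ± 0.225 (SE). Its unadjusted edgeR p was 0.00389 and its adjusted p 0.9998. SLIT3 was taken from the list of axon guidance genes by its p-value. Against the same vehicle libraries its log2 fold change was 0.78 in RANKL cells and 0.26 in denosumab cells. In TCam-2 OPG against its own vehicle it was -0.17.

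**Figure D3:**
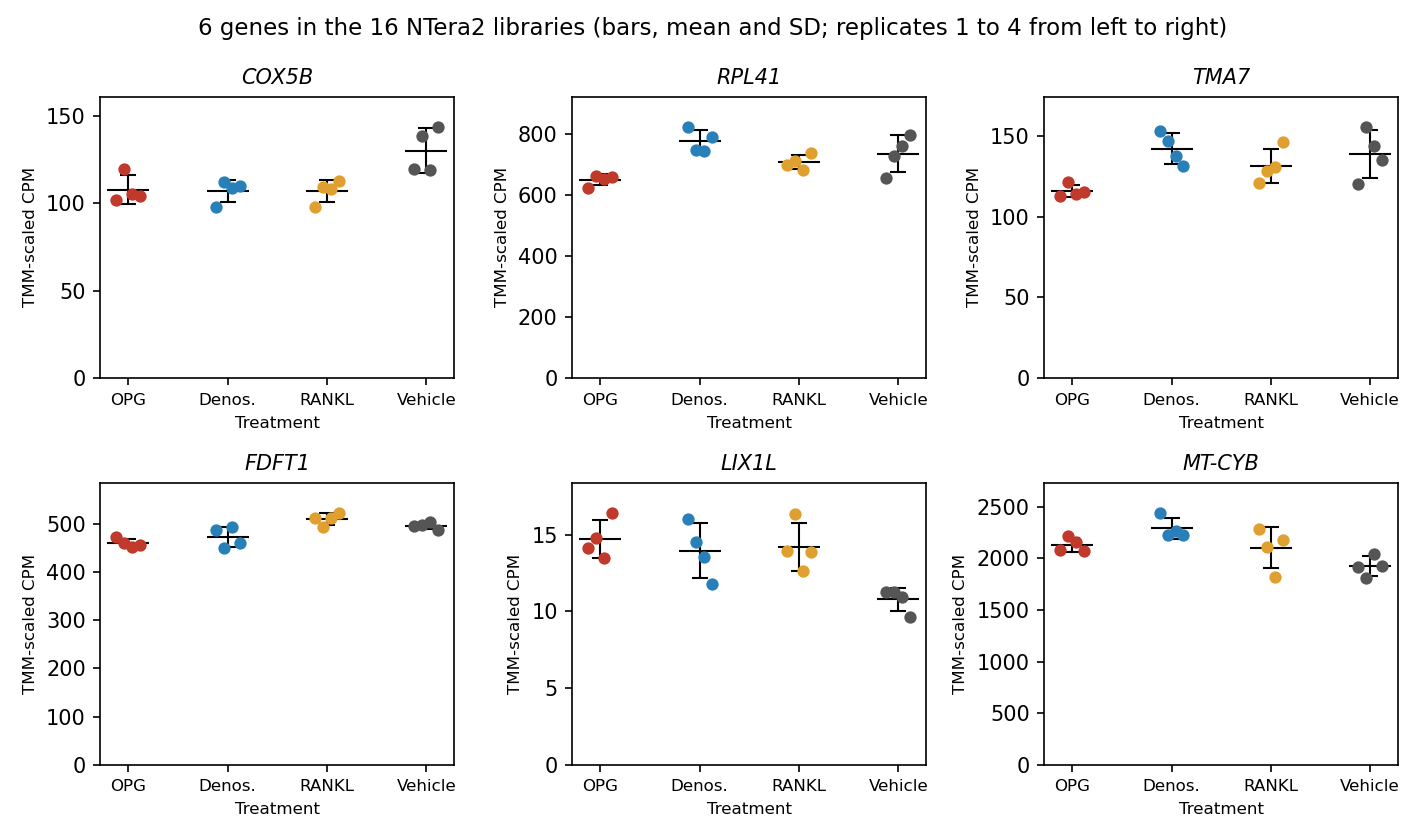
Points are the 16 NTera2 libraries by treatment and bars the mean and SD of 4, on an axis of TMM-scaled CPM that starts at 0. The COX5B means under OPG, denosumab and RANKL lie below that of vehicle and the LIX1L means above it, and RPL41 and TMA7 have their lowest means under OPG, at 650.5 and 116 CPM.

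The 79 genes of the cytosolic ribosome, the proteins of the translating ribosome, had slightly lower levels in OPG cells. Of the 79, 75 had a negative log2 fold change, beside 48.7% of all genes tested, and the median was -0.08. The 4 others were RPL22, RPL36A, RPL39 and RPL7, named after their values were seen. None was called, 16 were lower at an unadjusted edgeR p under 0.05 (0.807% of all genes), and 37 were lower in 4 of 4 pairs (6.6% of all genes). Many have near-identical pseudogenes, so their counts are uncertain.

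RPL41 had 625, 664, 654 and 659 CPM in OPG cells and 656, 729, 762 and 798 CPM in vehicle cells. The groups overlapped through vehicle replicate 1, and the log2 fold change was -0.18 ± 0.053 (SE). RPL37A averaged 1517 ± 52.2 CPM in OPG cells and 1659 ± 87.5 CPM in vehicle cells. RPLP0, the most abundant of the list, had 2750, 2951, 2993 and 2837 CPM in OPG cells and 2880, 3042, 3121 and 2992 CPM in vehicle cells, a log2 fold change of -0.06 ± 0.043 (SE).

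The median over the 79 genes was negative in each pair, at -0.07, -0.06, -0.11 and -0.09 for passages 27, 29, 30 and 31. Against the same vehicle libraries it was 0.02 in denosumab cells and -0.01 in RANKL cells, and in TCam-2 OPG against its own vehicle it was 0.00. The share of counts on these genes was 6.94 ± 0.185% in OPG cells and 7.29 ± 0.204% in vehicle cells (SD, n = 4 each). The groups overlapped on this share, at 6.68 to 7.11% in OPG libraries and 6.99 to 7.41% in vehicle libraries. The 16 genes under an unadjusted p of 0.05 became 4 without OPG replicate 1, 5 without vehicle replicate 2, 8 without vehicle replicate 4, 9 without OPG replicate 4 and 31 without vehicle replicate 1, and 30 with the replicate block or with GC and length correction.

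Ribosomal protein mRNAs are known for a 5′ terminal oligopyrimidine (TOP) tract, a C at the transcription start followed by C and T bases, through which growth signals regulate their translation. Start sites from RefSeq (GRCh38.p14) were searched on the gene's strand. A tract was a C at the first base followed by at least 4 bases that were C or T. A gene with several annotated starts was taken to have a tract if any of them had one. Of the 79 genes 63 had an entry and 47 of these had a tract (74.6%), against 5.14% of all 27305 genes with an entry. The windows below hold 20 bases before the start and 20 from it, with the tract in capitals, and set genes with a tract beside leading genes without one.
RPL41: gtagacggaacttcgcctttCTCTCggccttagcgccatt
RPL37A: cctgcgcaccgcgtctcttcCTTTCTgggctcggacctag
RPLP0: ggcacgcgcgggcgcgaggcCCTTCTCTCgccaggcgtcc
TOMM7: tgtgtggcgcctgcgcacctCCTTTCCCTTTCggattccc
TMA7: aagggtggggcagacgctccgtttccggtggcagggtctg
TMSB10: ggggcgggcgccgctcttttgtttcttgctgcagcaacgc
COX5B: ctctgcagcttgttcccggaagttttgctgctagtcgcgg
These windows are chr12:56116613-56116652 (plus strand) for RPL41, chr2:216498824-216498863 (plus) for RPL37A, chr12:120201092-120201131 (minus) for RPLP0 and chr7:22822830-22822869 (minus) for TOMM7. Those of TMA7, TMSB10 and COX5B are chr3:48440237-48440276, chr2:84905636-84905675 and chr2:97646042-97646081, all on the plus strand.

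The fold changes were then set beside the tract, without a test. The 47 ribosomal protein genes with a tract had a median log2 fold change of -0.08 and the 16 without one -0.07. The starts were annotated and not measured in NTera2, so this split does not show whether the tract mattered. The 815 other tested genes with a tract had a median of 0.00, with 409 negative and 406 positive. Of 16 tested translation factors of the TOP class 10 were negative with a median of -0.02, and EEF1A1, the elongation factor, averaged 6076 ± 147 CPM in OPG cells and 6193 ± 185 CPM in vehicle cells.

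The 13 mRNAs encoded by mitochondrial DNA, subunits of the respiratory chain and ATP synthase, had slightly higher levels in OPG cells. Of the 13, 12 had a positive log2 fold change, with a median of 0.13 beside 51.3% positive genes over all tested. None was called, 6 had an unadjusted edgeR p under 0.05 and were higher (0.87% of all genes), and 5 had groups without overlap (0.928% of all genes), namely MT-CYB, MT-CO3, MT-ND4, MT-CO2 and MT-ND1. The 6 became 0 without vehicle replicate 2 and 2 without OPG replicate 1, 1 with length correction and 2 with GC and length correction.

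MT-CYB, a complex III subunit, had 2085, 2218, 2156 and 2076 CPM in OPG cells and 1915, 1812, 2046 and 1925 CPM in vehicle cells. MT-CO3, of complex IV, had 4130, 3864, 3730 and 3713 CPM in OPG cells and 3707, 3250, 3517 and 3452 CPM in vehicle cells. Every OPG library lay above every vehicle library for both. MT-ATP6 and MT-ND4, which share bases with neighbouring genes, had log2 fold changes of 0.18 ± 0.072 and 0.15 ± 0.061 (SE).

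The exception was MT-ND6, chosen after its value was seen, the one mRNA of the list on the other DNA strand. It had 54.1, 73.0, 55.5 and 74.1 CPM in OPG cells and 67.2, 84.3, 73.0 and 74.4 CPM in vehicle cells, lower in 4 of 4 pairs. The share of counts on the mitochondrial mRNAs was 3.52 ± 0.0955% in OPG cells and 3.22 ± 0.164% in vehicle cells. Against the same vehicle libraries the median of the list was 0.25 in denosumab cells and 0.14 in RANKL cells, and in TCam-2 OPG against its vehicle it was 0.01.

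Nuclear genes of the mitochondrion lay mostly on the other side of 0. Of 34 nuclear subunits of complexes III, IV and V 25 were negative, of 38 of complex I 31, of 76 mitochondrial ribosomal proteins 55 and of 22 import genes 16. Of all genes tested 48.7% were negative. The medians of these lists ran from -0.05 to -0.03. By pair the median of complexes III, IV and V was -0.02, 0.03, -0.07 and -0.06, and the other lists had negative medians in each pair. Against the same vehicle libraries, complexes III, IV and V had medians of 0.05 in denosumab cells and 0.02 in RANKL cells. Import genes had 0.05 in both, complex I -0.01 and -0.04, and mitochondrial ribosomal proteins -0.01 in both. UQCRQ, of complex III, had 61.1, 66.7, 67.9 and 66.7 CPM in OPG cells and 70.8, 75.0, 71.8 and 76.97 CPM in vehicle cells, without overlap. MRPL54, a mitochondrial ribosomal protein, averaged 35.1 ± 5.41 CPM in OPG cells and 42.2 ± 2.99 CPM in vehicle cells.

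Cholesterol synthesis genes, which make sterols from acetyl-CoA, had slightly lower levels in OPG cells. Of 22, 20 had a negative log2 fold change with a median of -0.08, and the others were MSMO1 and SC5D, named after their values were seen. None was called, and 3 were lower at an unadjusted edgeR p under 0.05 (0.807% of all genes), each without overlap (0.991% of all genes). The 3 became 1 without vehicle replicate 2, 5 without OPG replicate 2 or vehicle replicate 1 and 6 without OPG replicate 3, and 5 with the replicate block. FDFT1, squalene synthase, had 473, 461, 453 and 457 CPM in OPG cells and 495, 499, 504 and 487 CPM in vehicle cells. FDPS, farnesyl diphosphate synthase, averaged 398 ± 21.7 CPM in OPG cells and 432 ± 15.9 CPM in vehicle cells, and MVK, mevalonate kinase, 30.1 ± 2.07 CPM and 34.8 ± 1.33 CPM. The median against the same vehicle libraries was -0.09 in denosumab cells and 0.00 in RANKL cells.

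Stress genes differed little. Of 20 genes of the integrated stress and unfolded protein responses 15 were negative with a median of -0.06 and none had an unadjusted edgeR p under 0.05. PDIA4, an endoplasmic reticulum chaperone, averaged 451 ± 13.4 CPM in OPG cells and 478 ± 16.3 CPM in vehicle cells. Among immediate early genes JUND averaged 60.8 ± 0.991 CPM in OPG cells and 70.0 ± 14.6 CPM in vehicle cells. In vehicle cells, JUND replicates 1 and 3 had 57.9 and 56.7 CPM and replicates 2 and 4 had 83.1 and 82.2 CPM. The log2 fold change of JUND was -0.21, and against the same vehicle libraries -0.50 in denosumab cells and -0.41 in RANKL cells. In TCam-2 OPG against its own vehicle it was -0.59. ID1, a target of BMP signalling, averaged 68.6 ± 5.84 CPM in OPG cells and 81.4 ± 14.9 CPM in vehicle cells, with overlapping groups. Its vehicle replicates 1 and 3 had 71.8 and 65.8 CPM and replicates 2 and 4 had 96.7 and 91.4 CPM. The log2 fold change of ID1 was -0.25, and against the same vehicle libraries -0.42 in denosumab cells and -0.31 in RANKL cells.

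**Figure D4:**
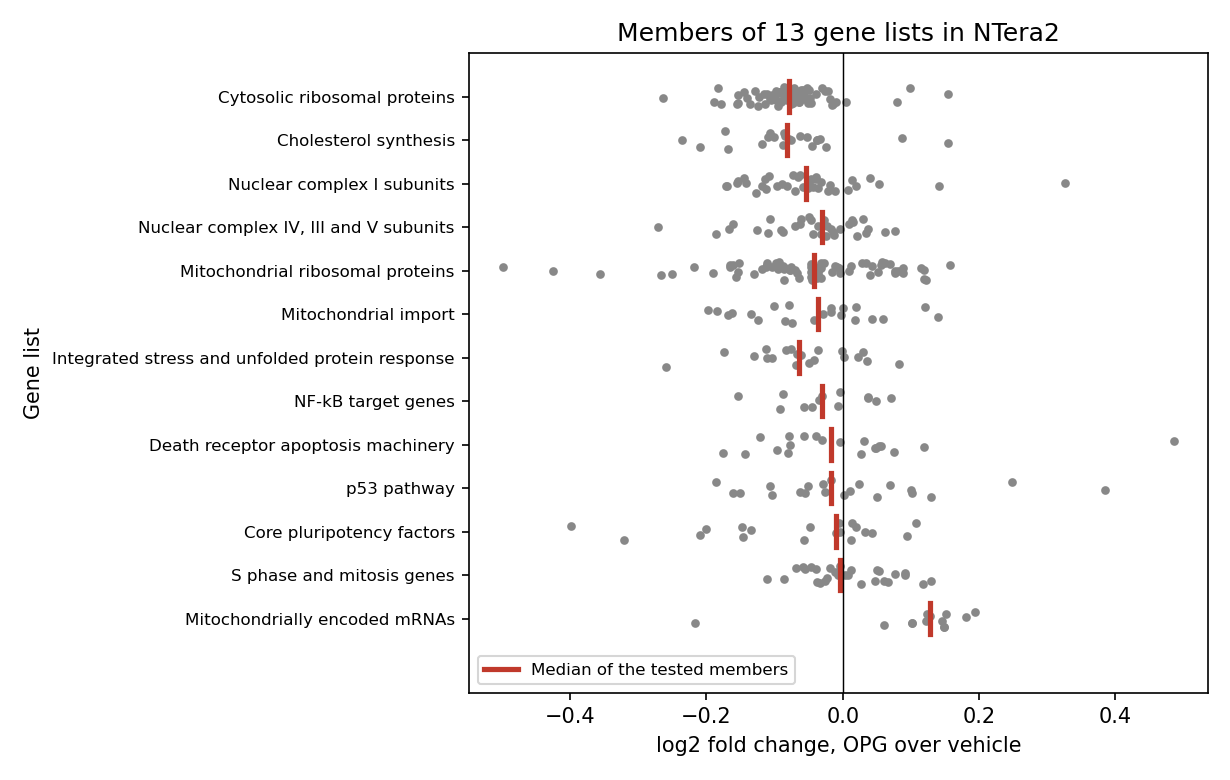
Grey points are the tested members of 13 gene lists at their log2 fold change, OPG over vehicle, spread vertically within a list for legibility, and red lines are the medians. The medians run from -0.08 for cholesterol synthesis and ribosomal protein genes to 0.13 for the mitochondrially encoded mRNAs.

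Base composition moved with the fold changes. Genes whose longest transcript held under 40% G and C had a median log2 fold change of 0.08, and 22.6% of the 2411 were negative, whereas at 65% or more the median was -0.11 and 82.7% of 585 were negative. Pairs 1, 2 and 4 shared this slope and pair 3 had the opposite one, with medians of 0.29 in pair 3 and -0.36 in pair 4 for the 65% class. The first principal component of the 8 libraries held 48.6% of the variance, and its loadings correlated with GC content across 9931 genes of the same libraries (r = 0.82, a description over genes that are not independent). OPG replicates 1 to 4 scored -14.3, 4.00, 7.11 and -9.72, and vehicle replicates -6.10, 13.9, -1.38 and 6.48, so the groups overlapped on it.

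After correction for GC content and length, edgeR called 0 genes, and the ribosomal protein and mitochondrial medians were -0.07 and 0.09. The part of GC content in the single fold changes was not tested further.

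**Figure D5:**
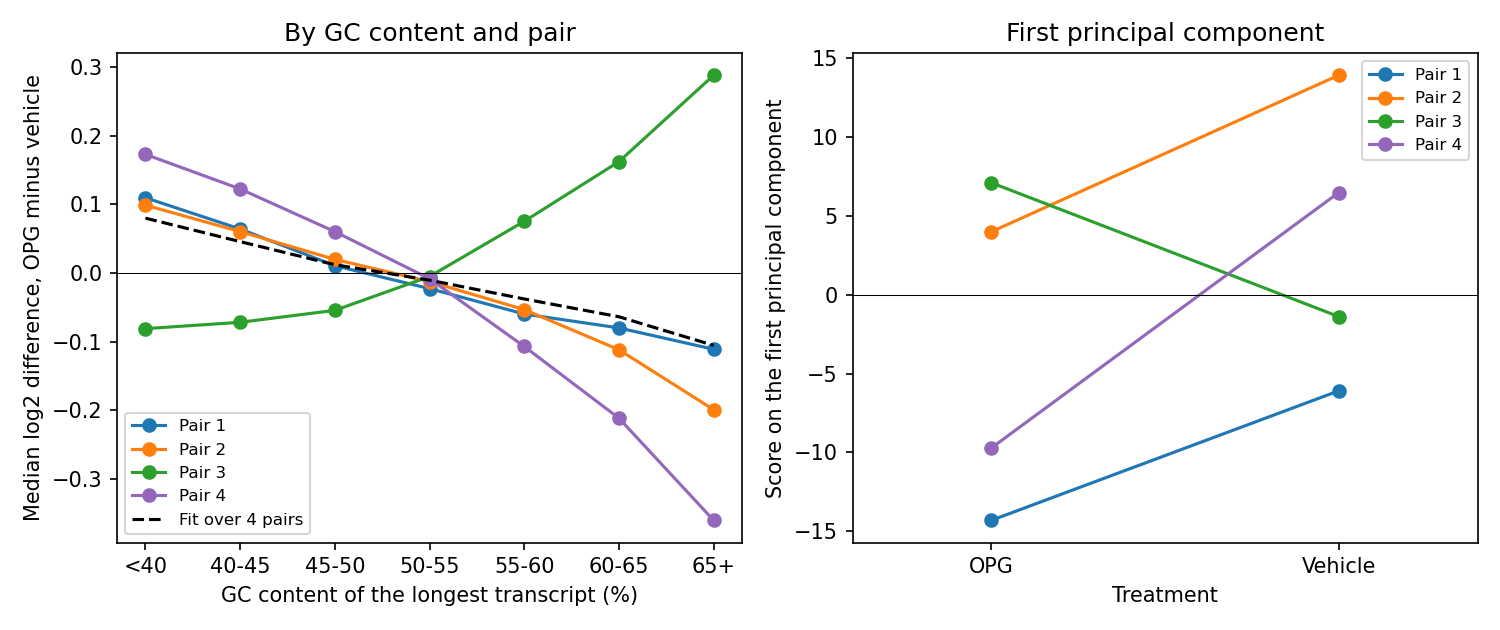
Left, the median log2 difference, OPG minus vehicle, by GC content of the longest transcript for each pair (lines) and for the fit (dashed). Right, scores on the first principal component, OPG left of vehicle with pairs joined. Pair 3 runs against the other 3 in both panels.

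Against denosumab, the other agent that binds RANKL, OPG gave no called gene either. Of 17351 genes 0 were called by edgeR (0%) with a smallest adjusted p of 0.8291, and DESeq2 called 0. At an unadjusted edgeR p under 0.05 stood 589 genes (3.39%), 348 higher in OPG cells (2.01%) and 241 lower (1.39%). RPL41 averaged 650.5 CPM in OPG cells and 777 CPM in denosumab cells, a log2 difference of -0.26 ± 0.053 (SE) with an unadjusted edgeR p of 4.8e-05 and an adjusted p of 0.8291. With the replicate block the smallest adjusted edgeR p over all genes was 0.0521. COX5B averaged 108 CPM in OPG cells and 107 CPM in denosumab cells, a log2 difference of 0.01 ± 0.073 (SE). RANKL and denosumab gave COX5B log2 fold changes of -0.28 each against the vehicle libraries that the OPG comparison shares.

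The effect of OPG did not differ detectably between the lines. Of 19216 genes tested for the difference, OPG effect in NTera2 minus OPG effect in TCam-2, edgeR called 0 (0%) with a smallest adjusted p of 0.333, and DESeq2 called 0. At an unadjusted edgeR p under 0.05 stood 999 genes (5.2%), 535 with a positive difference (2.78%) and 464 with a negative one (2.41%). LIX1L had log2 fold changes of 0.45 in NTera2 and 0.27 in TCam-2, and RPL41 -0.18 in NTera2 and 0.07 in TCam-2, a difference of -0.28 in the joint fit of both lines, with an adjusted edgeR p of 0.900.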

How the data were processed

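Poly-A RNA was sequenced as 52-bp read pairs from stranded libraries, per the labels' protocols. Per the submitters' processing notes, the authors used bcl2fastq 2.20.0, STAR 2.7.9a and featureCounts 1.6.2, and the deposited values were whole-number read counts per gene. Annotation release and strand setting are not given in the sources used here, so overlapping and antisense genes are uncertain. The table held 61541 genes, and 0 columns were left unmapped. 35258 genes carried a symbol, and mitochondrial symbols came from a name table. The deposited table also gave gene coordinates and a gene length, another kind of value than a count, used for the length correction.

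Counts were fitted with edgeR 4.0.16 (R 4.3.3; filterByExpr, TMM, robust quasi-likelihood F test, Benjamini-Hochberg) over the 16 NTera2 libraries, with group as the term and an adjusted p under 0.05 as the call. SE was the log2 fold change over the square root of F. All 32 libraries were fitted for the difference between lines. DESeq2 1.42.0 was an alternative. Scripts were tested on simulated data. GC content came from GENCODE transcripts, for 17073 of the tested genes (98.4%).

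The members and lists were chosen with earlier results of these data known. Named genes were those of the RANKL and TRAIL axis, the 12 smallest p-values per direction at a mean of 10 CPM or more, and a few per list by level or p. Which list members to name was settled after their values were seen, and several near 0 whose sign turned with the processing were left unnamed, though CCND1 and MCL1 are named. The labels give each replicate number a shared passage, which pairs the libraries. Deviations of same-numbered libraries from their group means correlated at 0.67, 0.53, -0.19 and -0.016 over 9943 genes. No library was a duplicate of another in its group, since chi-square over degrees of freedom between their counts was 2.67 to 8.33. By this measure the spread between libraries exceeded counting noise, and the intervals come from that spread. Depth also limits the precision.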

Additional observations from a re-analysis of the deposited data

Results flagged for a closer look

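In 9 of 132 groups of 4 libraries examined, 1 library lay far from the other 3 by Dixon's test at the 95% level. Chance flags about 1 in 20 groups. In OPG cells, replicate 1 was low for PIN4 (38.6 CPM), FADD (65.6 CPM) and FDPS (365 CPM) and high for MCL1 (416 CPM), and replicate 4 was low for MVK (27.1 CPM). In vehicle cells, replicate 2 was high for NFKB2 (63.0 CPM) and POU5F1 (1591 CPM), and replicate 1 was high for SLIT3 (2.98 CPM). Vehicle replicate 1 also had the lowest share of counts on ribosomal protein genes among the vehicle libraries, 6.99%. The part of these libraries in the results was not tested beyond the values given without them.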

How the results depend on the processing

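For OPG against vehicle, 0 genes were called under each of the 19 alternatives, among them DESeq2, other scaling and filters, the replicate block, the GC and length corrections (the GC ones chosen after seeing the data), the 8 libraries alone, and leaving out each library (range 0 to 0). The smallest adjusted p was 0.0644, under the block with GC and length correction. The replicate block changed no call. Without a low-count filter, OPG against denosumab gave 7 called genes, among them CAPN15, HELZ2, PKD1 and HSPG2 higher in OPG cells and MT-ND6 and RPL41 lower, and the difference between lines gave 3, PAX8-AS1 and RPS15P4 higher and ATCAY lower. With the filter, leaving out single libraries gave 0 to 0 for both. The calls without the filter were not refitted with libraries left out, and their cause was not tested.

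Of 62 genes followed through 19 alternatives (1178 values), 6 turned sign at least once, each with a log2 fold change near 0. Several list members that turned sign were left out of the 62 after their values were seen, so this count is too low for the lists. TNFRSF11B was 0.0193 with the length correction and 0.0176 with block and length correction. TNFRSF10C was 0.0156 with GC and length correction and 0.0094 with block added. With single libraries left out, the range was -0.116 to 0.133 for TNFRSF11B, -0.0837 to 0.0197 for TNFRSF10A, -0.0471 to 0.0116 for TNFRSF10B, -0.163 to 0.0773 for TNFRSF10C, -0.0548 to 0.0243 for CCND1 and -0.0479 to 0.0253 for MCL1. The list medians kept their sign in 20 of 20 fits for ribosomal protein genes (-0.10 to -0.06), mitochondrial mRNAs (0.09 to 0.15) and cholesterol synthesis genes (-0.10 to -0.05). Depth limits the genes under 10 CPM most.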

Other observations

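Gene groups outside the pathways above also held no called gene. Of 24 actin and thymosin genes 18 were negative with a median log2 fold change of -0.03. Of 20 tested interferon response genes 13 were negative with a median of -0.05, and of 18 immediate early genes 11 were negative. Of 13 heat shock proteins and co-chaperones 8 were negative and of 23 hypoxia and glycolysis genes 12. Of 25 tested axon guidance genes 14 were positive, and of 17 tested replication-dependent histone genes 10 were positive. Of 25 tested collagen, laminin and integrin genes 12 were positive and 13 negative.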
